A study of Homo sapiens with 4 samples.

Results

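The androgen glucuronidation and conversion enzymes described here are 10 genes taken by name for their roles, of 25343 genes in the tables: UGT2B11, UGT2B15, UGT2B17 and UGT2B28, which belong to the UDP-glucuronosyltransferase UGT2B family, and SRD5A1, SRD5A3, AKR1C3, HSD17B4, HSD17B11 and STS, which make, convert or release steroids. All 10 were found in the tables. RNA-seq was done on 4 libraries from 2 related lines of human prostate cancer, LNCaP, which came from a lymph node metastasis, and C4-2B ENZR, a resistant derivative of its lineage. C4-2B ENZR shMAOA cells carried a lentiviral short hairpin against the coding region of MAOA, and C4-2B ENZR shCon cells a non-targeting hairpin. Both were grown with 20 µM enzalutamide, an antiandrogen drug. LNCaP shMAOA and LNCaP shCon cells carried hairpins of the same 2 kinds, and no enzalutamide is recorded for them. Medium in all 4 groups held 10% fetal bovine serum, so steroids of serum were present throughout. MAOA encodes monoamine oxidase A, which oxidizes serotonin, noradrenaline and dopamine. Each group was 1 library of stably selected cells, and whether both lines received the same MAOA hairpin is not stated in the labels.

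Androgens are inactivated in prostate cells when UGT2B enzymes join glucuronic acid to testosterone, dihydrotestosterone and their reduced metabolites. UGT2B15 and UGT2B17 do most of this in the prostate, and androgens are known to repress both genes in prostate cancer cells. On the other side of the balance, STS frees steroids from their sulfates, AKR1C3 reduces androstenedione to testosterone, and SRD5A1 reduces testosterone and androstenedione at the A ring.

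The UGT2B genes lie together on chromosome 4, in the order UGT2B17, UGT2B15, UGT2B10, UGT2B7, UGT2B11, UGT2B28 and UGT2B4 by position in GENCODE v29 (GRCh38). The closest of them are near-identical copies, and this limits what 50-nt single reads can assign to one of them. The coding sequences of UGT2B15 and UGT2B17 were 96.5% identical, with one run of 199 nt in common, and those of UGT2B11 and UGT2B28 were 97.0% identical. UGT2B15 and UGT2B11 were 84.5% identical. A pair of stretches from UGT2B15 and UGT2B17 shows a most different and an identical case. Only 50-nt windows within a single exon of both genes were considered. For the most different, windows over a UGT2B15 coding base where people differ were also left out. The first covers coding bases 254 to 303 and holds the 8 differences marked by capitals (UGT2B15 at chr4:68670316-68670365, UGT2B17 at chr4:68568182-68568231, GRCh38, minus strand). The second covers coding bases 1208 to 1257, where a read of 50 nt could come from either gene (UGT2B15 at chr4:68654093-68654142, UGT2B17 at chr4:68550733-68550782).
UGT2B15, bases that differ: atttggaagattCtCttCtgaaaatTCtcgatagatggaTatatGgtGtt
UGT2B17, bases that differ: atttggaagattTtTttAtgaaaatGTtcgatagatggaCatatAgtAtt
UGT2B15, shared stretch: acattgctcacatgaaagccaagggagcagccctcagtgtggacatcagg
UGT2B17, shared stretch: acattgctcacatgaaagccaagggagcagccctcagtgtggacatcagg

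Over the whole transcripts, 27.8% of the 50-nt words of UGT2B15 and 27.8% of those of UGT2B17 also occurred in another gene. The share was 47.3% for UGT2B11 and 35.7% for UGT2B28. Among the other members it was 12.1% for AKR1C3, a member of the aldo-keto reductase AKR1C family, and 4.81% for SRD5A3, 3.81% for HSD17B11, 1.33% for SRD5A1, 0.0927% for STS and 0% for HSD17B4. Single UGT2B values are therefore uncertain in how reads were divided among copies, and summed UGT2B values are given beside them. Some words are also shared with UGT2B pseudogenes, which the sums leave out. For UGT2B11 the top partner was the pseudogene UGT2B25P, with 22.4% of its words.

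Upstream sequence was read for the members from RefSeq (GRCh38.p14), whose table matched 8 of the 10 members and had no entry for UGT2B17 and UGT2B28. The 250 bases before the start site are shown for UGT2B15 (chr4:68670653-68670902, minus strand) and UGT2B11 (chr4:69214749-69214998, minus strand), whose levels both differed in C4-2B ENZR, to set their upstream letters side by side. Capitals in UGT2B15 mark the reverse complements of TGTTTAC, a forkhead (FOXA) word, and TGTTCT, the core of the androgen response element.
UGT2B15, upstream: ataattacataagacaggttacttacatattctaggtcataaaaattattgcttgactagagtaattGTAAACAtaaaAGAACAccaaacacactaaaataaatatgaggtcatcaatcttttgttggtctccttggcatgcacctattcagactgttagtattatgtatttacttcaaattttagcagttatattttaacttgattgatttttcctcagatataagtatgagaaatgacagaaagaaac
UGT2B11, upstream: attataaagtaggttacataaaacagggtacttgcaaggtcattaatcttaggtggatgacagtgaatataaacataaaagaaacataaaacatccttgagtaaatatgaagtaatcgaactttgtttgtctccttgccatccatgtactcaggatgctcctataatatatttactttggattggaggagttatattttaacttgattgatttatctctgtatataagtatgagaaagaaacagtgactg

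Aligned to each other, these stretches were 70.0% identical. Both strands were searched for the full HNF1 consensus and its first part GTTAAT, for TGTTTAC (FOXA), and for TGTTCT and GGTACA (the cores of the androgen response element). UGT2B15 held 1 TGTTTAC, starting at position -183 from the start site, and 1 TGTTCT, starting at position -172, and UGT2B11 held none of the 5 words. STS, with several start sites, held TGTTCT at -105 before a start site, and TGTTCT at -249 and GTTAAT at -180 before another. AKR1C3 held GGTACA at -106 before 1 of its start sites. SRD5A1, SRD5A3, HSD17B4 and HSD17B11 held none. Of 35116 such upstream windows over all genes, 2.98% held TGTTTAC, 12.4% TGTTCT, 6.23% GTTAAT, 4.73% GGTACA and 0.00570% the HNF1 consensus. These are matches of letters only.

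The tables hold CPM values, reads of a gene relative to library size, with TMM scaling within each line, from which whole reads could be recovered. Depth was 23679869 and 23479051 reads in the C4-2B ENZR shMAOA and shCon libraries, and 52012696 and 52550452 reads in the LNCaP shMAOA and shCon libraries. Where 3 reads are taken as the floor of a library, it was 0.122 and 0.121 CPM in C4-2B ENZR shMAOA and shCon and 0.0614 and 0.0529 CPM in LNCaP shMAOA and shCon. MAOA itself was at 219 CPM in C4-2B ENZR shMAOA and 327 CPM in C4-2B ENZR shCon, and at 140 CPM in LNCaP shMAOA and 445 CPM in LNCaP shCon, so 66.8% of the control level was left in C4-2B ENZR and 31.3% in LNCaP. It fell in the limma fit over both lines (mean log2 ratio -1.12, SE 0.14 pooled over genes, Benjamini-Hochberg adjusted p = 4.44e-12). The luminal prostate markers were all detected (8 of 8 in every library, summing to 3350 to 7690 CPM), while the basal markers summed to 0.0404 to 1.15 CPM, the leukocyte markers to 2.78 to 5.30 CPM with CD3E at 0 in all 4, the hepatocyte markers to 5.57 to 10.4 CPM, and the fibroblast markers to 45.8 to 60.9 CPM with COL1A2 at 0 in all 4. Nearly all of the fibroblast sum was COL1A1, at 44.4 CPM in C4-2B ENZR shCon and 60.9 CPM in LNCaP shMAOA, for example. In LNCaP the median gene with a mean of 10 CPM or more had a log2 ratio of 0.13, against -0.01 in C4-2B ENZR, so LNCaP ratios are also given centred on that median. The library names in the labels end in another suffix in each line, in the form of a sequencing lane, so line and that suffix cannot be told apart.

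**Figure D1:**
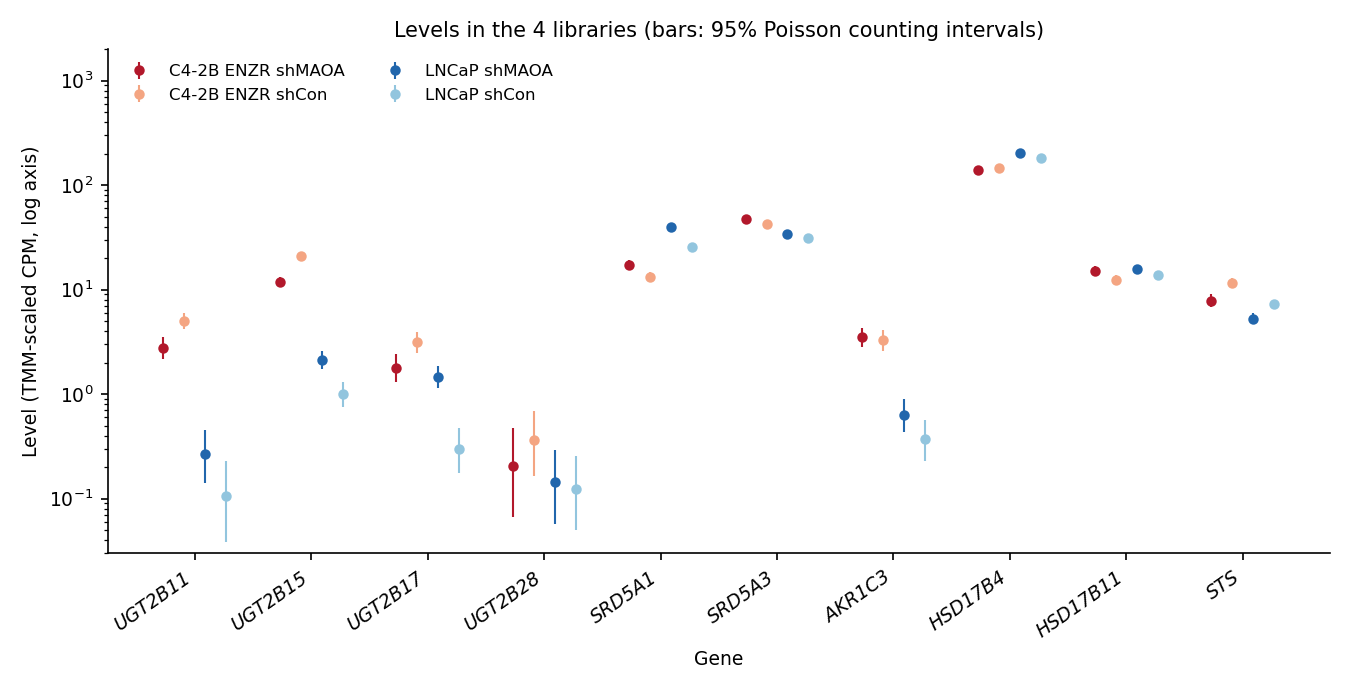
Level of each androgen enzyme gene in the 4 libraries, as TMM-scaled CPM on a log axis, with bars for 95% Poisson intervals of the read count (counting error only). UGT2B11, UGT2B15 and UGT2B17 sit lower in C4-2B ENZR shMAOA than in shCon, UGT2B15 and UGT2B17 higher in LNCaP shMAOA than in shCon, and HSD17B4 lies above 100 CPM in every library.

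Per kilobase of the longest coding transcript in GENCODE, HSD17B4 was the highest of the 10 in every library, at 48.3 and 50.7 CPM per kb in C4-2B ENZR shMAOA and shCon and at 70.3 and 63.6 CPM per kb in LNCaP shMAOA and shCon. UGT2B15 was the 4th highest in C4-2B ENZR shMAOA (5.70 CPM per kb) and the 2nd highest in C4-2B ENZR shCon (10.2 CPM per kb), but the 5th and 6th highest in LNCaP shMAOA and shCon (1.02 and 0.484 CPM per kb). SRD5A3 and HSD17B11 lay close to each other near the top in LNCaP, at 8.14 and 8.39 CPM per kb in shMAOA and 7.38 and 7.29 CPM per kb in shCon. UGT2B28 was the lowest in 3 libraries, and UGT2B11 in LNCaP shCon. SRD5A3 and HSD17B11 changed places between the LNCaP libraries, and their order is not firm, since the lengths come from GENCODE and not from the annotation behind the tables. Nor is the order of UGT2B15 and SRD5A3 in C4-2B ENZR shCon firm, at 10.2 and 10.1 CPM per kb. The tables were scaled separately, so levels set across the lines are approximate.

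The first question was how the enzymes that conjugate androgens differed between knockdown and control in each line. In C4-2B ENZR all 7 UGT2B genes in the table had fewer CPM in shMAOA than in shCon, where 47.8% of all genes with a read had fewer. Some of these directions rest on few reads, such as UGT2B7 (0 in shMAOA, 2 in shCon) and UGT2B4 (4 and 7). In LNCaP 1 of the 7 had fewer (UGT2B4, with 0 reads in shMAOA and 4 in shCon), where 37.6% of all genes had fewer. UGT2B10 (1 read) and UGT2B28 (7 reads) had equal reads in both LNCaP libraries, so only the scaling set their direction. UGT2B7 had 3 reads in LNCaP shMAOA and 0 in LNCaP shCon. Over the 7 genes together, C4-2B ENZR shMAOA had 17.2 CPM (423 reads) and shCon 31.0 CPM (767 reads), a log2 ratio of -0.85 (95% counting interval -1.03 to -0.68), so that 55.5% of the control level was left. LNCaP shMAOA had 4.09 CPM (200 reads) and shCon 1.62 CPM (92 reads), a log2 ratio of 1.34 (0.97 to 1.71), or 2.53-fold more. With both LNCaP libraries rescaled to the same sum, the ratio was 1.14. The UGT2B total was thus lower in the knockdown in one line and higher in the other. Intervals cover counting error only, each group is 1 library, and the spread between cultures is unknown.

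UGT2B15, the most abundant UGT2B gene in each library, conjugates dihydrotestosterone and androstanediol. It stood at 11.8 CPM (291 reads) in C4-2B ENZR shMAOA and 21.1 CPM (523 reads) in C4-2B ENZR shCon, a log2 ratio of -0.84 (-1.05 to -0.63). In LNCaP it stood at 2.13 CPM (104 reads) in shMAOA and 1.00 CPM (57 reads) in shCon, a log2 ratio of 1.08 (0.60 to 1.58), and 0.95 when centred. The control libraries were thus far apart, with LNCaP shCon lower than either C4-2B ENZR library. On log2(CPM + 1), which understates changes of low genes, the ratios were -0.79 in C4-2B ENZR and 0.64 in LNCaP, and their difference of 1.43 ranked 18 of 13114 genes by LNCaP minus C4-2B ENZR, with 0.137% of genes at least as large. In the limma fit over both lines UGT2B15 averaged -0.07 (Benjamini-Hochberg adjusted p = 0.880).

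UGT2B17, the copy closest to UGT2B15, also conjugates testosterone. It was at 1.79 CPM (44 reads) in C4-2B ENZR shMAOA and 3.15 CPM (78 reads) in C4-2B ENZR shCon, a log2 ratio of -0.82 (-1.38 to -0.27). In LNCaP it was at 1.47 CPM (72 reads) in shMAOA and 0.300 CPM (17 reads) in shCon, a log2 ratio of 2.30 (1.52 to 3.16), or 4.92-fold more, and 2.16 when centred. The level in LNCaP shMAOA was thus near that in C4-2B ENZR shMAOA and below that in C4-2B ENZR shCon, and LNCaP shCon was the lowest of the 4. Within the UGT2B15 and UGT2B17 pair, UGT2B17 held 13.1% of the reads (exact binomial 95% interval 9.71 to 17.2) in C4-2B ENZR shMAOA and 13.0% (10.4 to 15.9) in C4-2B ENZR shCon. In LNCaP it held 40.9% (33.6 to 48.6) in shMAOA and 23.0% (14.0 to 34.2) in shCon, intervals that overlap slightly. These shares do not depend on the scaling of the tables. Reads shared by both copies can move between the 2 genes, and the summed pair had log2 ratios of -0.84 in C4-2B ENZR and 1.47 in LNCaP.

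**Figure D2:**
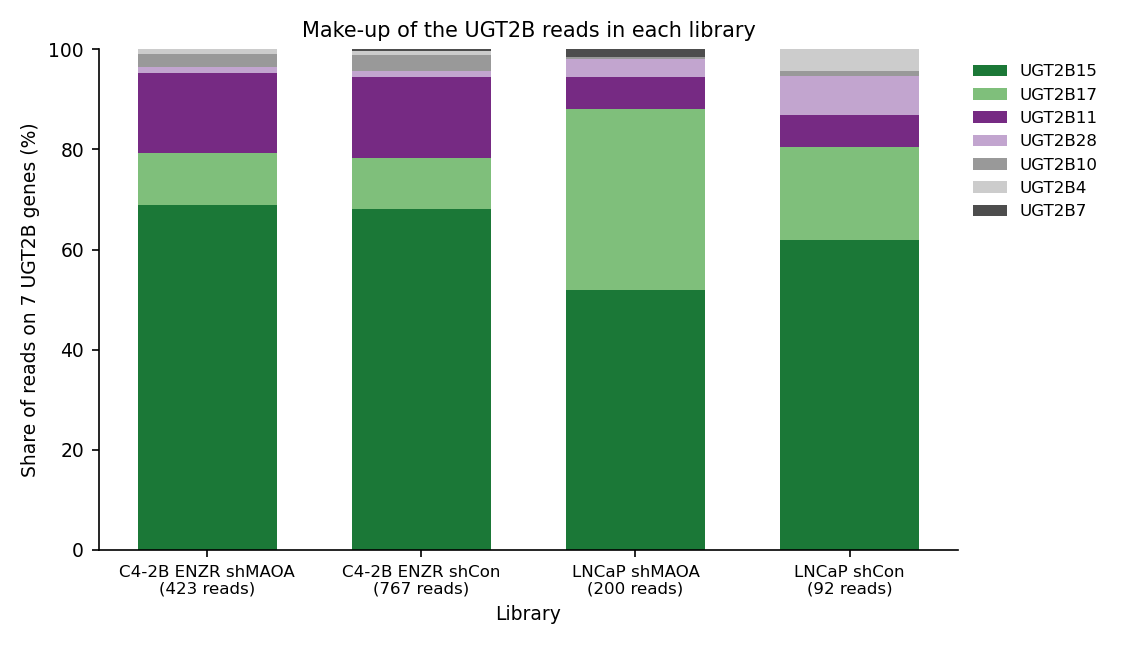
Share (%) of the reads on 7 UGT2B genes that each gene held, in the 4 libraries, with the total reads under each bar. The bars of C4-2B ENZR shMAOA and shCon are almost the same, whereas UGT2B17 held 36.0% in LNCaP shMAOA and 18.5% in LNCaP shCon.

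UGT2B11 was at 2.77 CPM (68 reads) in C4-2B ENZR shMAOA and 5.01 CPM (124 reads) in C4-2B ENZR shCon, a log2 ratio of -0.86 (-1.31 to -0.42). In LNCaP it had only 13 reads (0.266 CPM) in shMAOA and 6 reads (0.106 CPM) in shCon, a log2 ratio of 1.33 whose interval ran from -0.16 to 3.01. UGT2B28, which also acts on androgens, was close to the floor throughout. It had 5 reads (0.203 CPM) in C4-2B ENZR shMAOA and 9 (0.364 CPM) in C4-2B ENZR shCon, with a log2 interval of -2.77 to 0.89, and 7 reads (0.143 CPM) in LNCaP shMAOA and 7 (0.123 CPM) in LNCaP shCon, with one of -1.52 to 1.96, so no difference was detectable at this depth. UGT2B11 shared the lower level of the other copies in C4-2B ENZR shMAOA, and in LNCaP its interval included equality. The 5 UGT2B genes other than UGT2B15 and UGT2B17 summed to log2 ratios of -0.91 (-1.30 to -0.53) in C4-2B ENZR and 0.63 (-0.31 to 1.60) in LNCaP.

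In C4-2B ENZR the make-up of the UGT2B reads was nearly the same in both libraries. UGT2B15 held 68.8% in shMAOA and 68.2% in shCon, UGT2B17 held 10.4% in shMAOA and 10.2% in shCon, and UGT2B11 held 16.1% in shMAOA and 16.2% in shCon. In LNCaP UGT2B15 held 52.0% in shMAOA and 62.0% in shCon. The lower UGT2B total in C4-2B ENZR shMAOA was thus spread evenly over the 3 abundant genes, each at log2 ratios between -0.86 and -0.82.

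The second question was how the enzymes that convert or release androgens differed. SRD5A1, the steroid reductase that feeds dihydrotestosterone synthesis in prostate cancer cells, was higher in the knockdown in both lines. It stood at 17.4 CPM (427 reads) in C4-2B ENZR shMAOA and 13.3 CPM (330 reads) in C4-2B ENZR shCon, a log2 ratio of 0.38 (0.17 to 0.59) and 1.30-fold. In LNCaP it stood at 39.4 CPM (1927 reads) in shMAOA and 25.8 CPM (1467 reads) in shCon, a log2 ratio of 0.61 (0.51 to 0.71) and 1.53-fold, and 0.47 when centred. SRD5A1 was the one member that rose in the limma fit over both lines, with a mean of 0.47 on log2(CPM + 1), an SE of 0.14 pooled over genes and a Benjamini-Hochberg adjusted p of 0.0223. That call was lost in several other fits, for example with an adjusted p of 0.0750 in edgeR with recomputed TMM, and over all alternatives the adjusted p of limma, edgeR and DESeq2 ran from 0.0132 to 0.241.

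SRD5A3, best known as the polyprenol reductase of dolichol synthesis, was at 47.3 CPM (1162 reads) in C4-2B ENZR shMAOA and 42.1 CPM (1042 reads) in C4-2B ENZR shCon, a log2 ratio of 0.16 (0.04 to 0.29). In LNCaP it was at 34.1 CPM (1667 reads) in shMAOA and 30.9 CPM (1755 reads) in shCon, a log2 ratio of 0.14 (0.04 to 0.24) and 0.01 when centred. Its values lay close together, and in limma it averaged 0.15 (Benjamini-Hochberg adjusted p = 0.590). Of the reads on SRD5A1 and SRD5A3 together, SRD5A1 held 26.9% (24.7 to 29.1) in C4-2B ENZR shMAOA and 24.1% (21.8 to 26.4) in C4-2B ENZR shCon. In LNCaP it held 53.6% (52.0 to 55.3) in shMAOA and 45.5% (43.8 to 47.3) in shCon. By reads, SRD5A1 was thus a larger part of the pair in LNCaP than in C4-2B ENZR, and a larger part in LNCaP shMAOA than in LNCaP shCon beyond counting error.

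AKR1C3 was at 3.50 CPM (86 reads) in C4-2B ENZR shMAOA and 3.28 CPM (81 reads) in C4-2B ENZR shCon, a log2 ratio of 0.09 (-0.36 to 0.55). In LNCaP it was at 0.634 CPM (31 reads) in shMAOA and 0.370 CPM (21 reads) in shCon, a log2 ratio of 0.78 (-0.07 to 1.65). Both intervals included equality, and the level was several times lower in LNCaP than in C4-2B ENZR in either group. Summed with its near copies AKR1C1 and AKR1C2, the log2 ratios were -0.01 (-0.31 to 0.28) in C4-2B ENZR and 0.50 (-0.01 to 1.02) in LNCaP.

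HSD17B4, the peroxisomal multifunctional enzyme that oxidizes estradiol and shortens fatty acids, was at 139 CPM in C4-2B ENZR shMAOA and 146 CPM in C4-2B ENZR shCon, a log2 ratio of -0.07 (-0.14 to -0.00). In LNCaP it was at 203 CPM in shMAOA and 183 CPM in shCon, a log2 ratio of 0.15 (0.11 to 0.19) and 0.01 when centred. The deep coverage makes these intervals narrow, and the differences were small. In limma HSD17B4 averaged 0.04 (Benjamini-Hochberg adjusted p = 0.916), a direction that turned to -0.03 when ratios were centred.

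HSD17B11, a dehydrogenase of lipid droplets that oxidizes androstanediol to androsterone, was at 15.2 CPM (374 reads) in C4-2B ENZR shMAOA and 12.3 CPM (305 reads) in C4-2B ENZR shCon, a log2 ratio of 0.30 (0.08 to 0.53). In LNCaP it was at 15.8 CPM (773 reads) in shMAOA and 13.7 CPM (780 reads) in shCon, a log2 ratio of 0.20 (0.06 to 0.35) and 0.07 when centred. It did not pass limma, with a mean of 0.24 (Benjamini-Hochberg adjusted p = 0.410).

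STS, the steroid sulfatase that frees dehydroepiandrosterone and estrone from their sulfates, was lower in the knockdown in both lines. It stood at 7.85 CPM (193 reads) in C4-2B ENZR shMAOA and 11.6 CPM (286 reads) in C4-2B ENZR shCon, so 67.9% was left, a log2 ratio of -0.56 (-0.83 to -0.29). In LNCaP it stood at 5.28 CPM (258 reads) in shMAOA and 7.22 CPM (410 reads) in shCon, so 73.1% was left, a log2 ratio of -0.45 (-0.68 to -0.22) and -0.59 when centred. STS and SRD5A1 were the members whose counting intervals lay on one side of equality in both lines on both scales. In limma STS averaged -0.45 with an SE of 0.16 pooled over genes and missed the threshold (Benjamini-Hochberg adjusted p = 0.0804), and it passed when ratios were centred (adjusted p = 0.0319) or libraries were rescaled to the same sum (adjusted p = 0.0274). Over the alternatives with limma or edgeR its adjusted p ran from 0.0274 to 0.373, and DESeq2 gave none.

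**Figure D3:**
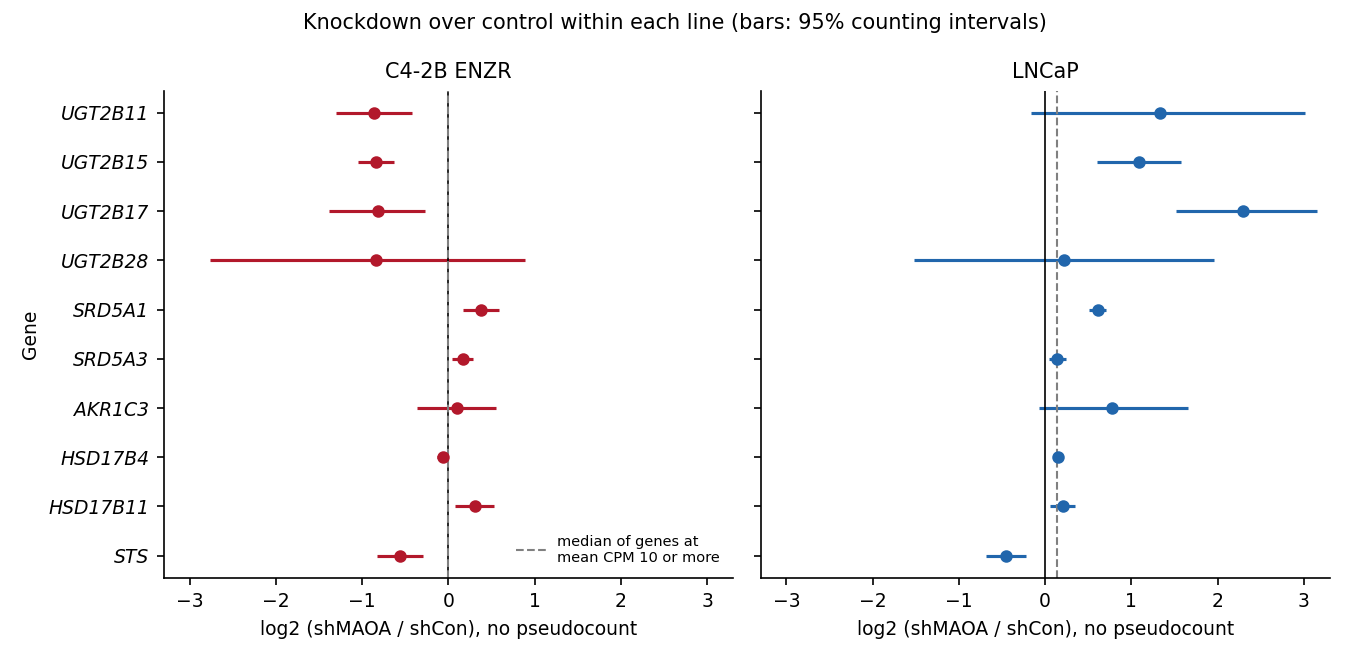
log2 ratio of shMAOA over shCon, without a pseudocount, for each androgen enzyme gene in C4-2B ENZR and in LNCaP, with bars for 95% counting intervals; the dashed line is the median of genes with a mean of 10 CPM or more. UGT2B15 and UGT2B17 lie left of 0 in C4-2B ENZR and right of it in LNCaP, SRD5A1 lies right of 0 and STS left of 0 in both.

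Counted over the list, 9 of the 10 members in C4-2B ENZR and 6 of the 10 in LNCaP had a mean of 1 CPM or more, and the same 6 entered the limma fit. On log2(CPM + 1), 0 members were 2-fold higher or 2-fold lower in either line. Of all genes at that level in C4-2B ENZR, 0.290% were past 2-fold upward and 0.152% downward; the LNCaP shares were 0.580% upward and 0.254% downward. At 1.5-fold, UGT2B11 and UGT2B15 were lower in C4-2B ENZR (0.963% of all genes) and 0 members were higher (1.59%). In LNCaP, SRD5A1 and UGT2B15 were 1.5-fold higher (4.98%) and 0 members were lower (1.57%). UGT2B17, at 4.92-fold without a pseudocount in LNCaP, was below the level filter there. All 10 members had 10 reads or more in each line over both libraries. The counting interval left out equality for 8 in C4-2B ENZR, 3 above it and 5 below, where it did so for 38.2% of all genes. In LNCaP it left out equality for 7, 6 above and 1 below (58.5% of all genes). Centred on the median gene, 7 did so in C4-2B ENZR (38.3%) and 4 in LNCaP (56.5%), which were UGT2B15, UGT2B17 and SRD5A1 above and STS below. UGT2B15 and UGT2B17 were the members with intervals below equality in C4-2B ENZR and above it in LNCaP, on both scales, as were 402 of 15809 genes (2.54%). In limma 1 of the 6 tested members rose and 0 fell, against 4.22% and 1.49% of the 13114 genes tested. The fit takes the 2 lines as replicates with 1 residual degree of freedom, so its p-values lean on the spread over genes.

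**Figure D4:**
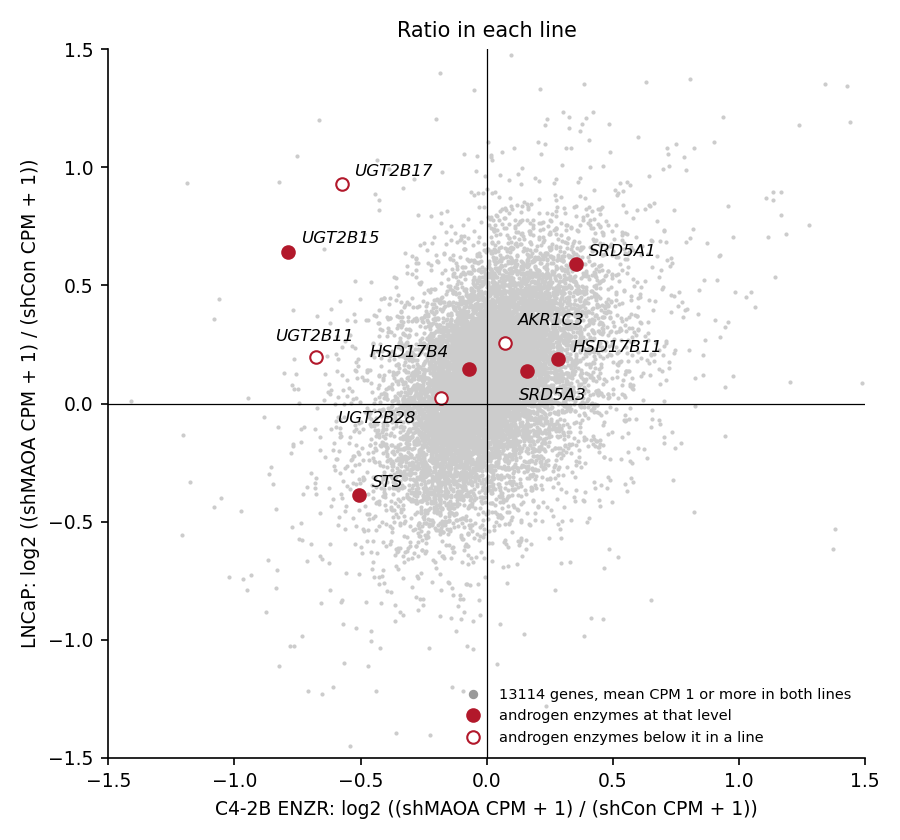
log2 ratio on the CPM + 1 scale in LNCaP against that in C4-2B ENZR. Grey points are the 13114 genes with a mean of 1 CPM or more in both lines (27 lie outside the axes), filled points are androgen enzyme genes at that level, and open points are those below it in a line; UGT2B15 and UGT2B17 lie in the upper left, SRD5A1 in the upper right and STS in the lower left.

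The genes nearest to UGT2B15 by distance between the 2 ratios, among 13113 others, were HBEGF (distance 0.14), a growth factor of the EGF family, GBP1 (0.25) and IFIH1 (0.29), which are interferon-inducible, ADAMTS1 (0.29), a secreted protease, and PMEPA1 (0.29), a gene induced by TGF-beta and androgen. This likeness rests on 2 values per gene. KLK3, the androgen-induced gene of prostate-specific antigen, was at 6.34 CPM in C4-2B ENZR shMAOA and 3.72 CPM in C4-2B ENZR shCon, and at 2716 CPM in LNCaP shMAOA and 2391 CPM in LNCaP shCon. On the deposited scale KLK3 thus had more CPM in the knockdown library of both lines, whereas the UGT2B total was lower in C4-2B ENZR shMAOA and higher in LNCaP shMAOA.

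Another 52 genes of androgen and steroid metabolism, in 8 lists, were looked up around the members. Of these 25 in C4-2B ENZR and 21 in LNCaP had a mean of 1 CPM or more, and 0 were past 2-fold on log2(CPM + 1). Of the genes at that level, 1 was past 2-fold without a pseudocount, HSD3B1 in C4-2B ENZR, which encodes a dehydrogenase of androgen synthesis. It is named here after its values were seen. HSD3B1 had 1.38 CPM (34 reads) in C4-2B ENZR shMAOA and 0.647 CPM (16 reads) in C4-2B ENZR shCon, a log2 ratio of 1.10 (0.20 to 2.05). In LNCaP it had 10 reads in shMAOA and 11 in shCon. It reached the level in C4-2B ENZR only through the shMAOA library, and the share of all genes past 2-fold on this scale is not given. Among genes below the level, UGT2B10 for example was past 2-fold the other way in C4-2B ENZR (log2 ratio -1.12, interval -2.29 to -0.03). In limma 20 were tested, 1 rose and 0 fell. The median C4-2B ENZR ratio of those measured was 0.06, and that of all genes was 0.00; the median LNCaP ratio was 0.23, and that of all genes was 0.11. FDXR, the reductase that passes electrons to the mitochondrial steroid hydroxylases and a known p53 target, was the gene that rose, at 53.3 CPM in C4-2B ENZR shMAOA and 42.7 CPM in C4-2B ENZR shCon, and at 55.8 CPM in LNCaP shMAOA and 38.2 CPM in LNCaP shCon. Its mean was 0.42 with an SE of 0.13 pooled over genes (limma, Benjamini-Hochberg adjusted p = 0.0250), and over the alternatives with limma, edgeR or DESeq2 the adjusted p ran from 0.0212 to 0.221.

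The other genes named are the most abundant of each list. UGDH, which makes the UDP-glucuronic acid that UGT2B enzymes use, was at 113 CPM in C4-2B ENZR shMAOA and 108 CPM in C4-2B ENZR shCon, and at 76.2 CPM in LNCaP shMAOA and 53.3 CPM in LNCaP shCon (log2 0.51, interval 0.45 to 0.58). Its limma mean was 0.29 (Benjamini-Hochberg adjusted p = 0.164). UGDH was thus higher mainly in LNCaP shMAOA (log2 0.38 when centred), and the difference between lines was not tested. A link to the UGT2B reads was not tested either. UGT2B10, another member of the cluster, had 11 reads in C4-2B ENZR shMAOA and 24 in C4-2B ENZR shCon, and 1 read in each LNCaP library.

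PAPSS1, which makes the sulfate donor for steroid sulfation, had 89.9 CPM in C4-2B ENZR shMAOA and 78.1 in its shCon, and 74.6 CPM in LNCaP shMAOA and 63.0 in its shCon. CYB5A, the cytochrome b5 that aids androgen synthesis, had 116 CPM in C4-2B ENZR shMAOA and 99.2 in its shCon, and 167 CPM in LNCaP shMAOA and 145 in its shCon. Both had more CPM in each knockdown library on the deposited scale, and neither passed limma. HSD17B10, a mitochondrial dehydrogenase, had 83.5 CPM in C4-2B ENZR shMAOA and 91.3 in its shCon, and 66.9 CPM in LNCaP shMAOA and 82.7 in its shCon, and did not pass limma. HSD17B12, an enzyme of fatty acid elongation, had 34.1 CPM in C4-2B ENZR shMAOA and 33.7 in its shCon, and 32.4 CPM in LNCaP shMAOA and 28.6 in its shCon. SLCO4A1, an organic anion transporter, had 35.5 CPM in C4-2B ENZR shMAOA and 34.0 in its shCon, and 87.5 CPM in LNCaP shMAOA and 58.2 in its shCon. CYP3A5, a steroid hydroxylase, stayed below 1 CPM in every library.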

How the data were processed

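RNA-seq of 4 libraries (2 lines, 1 library per group) was analysed from 1 table per line. Per the submitters' processing notes, the authors used Bowtie2 2.1.0, RSEM 1.2.15, edgeR and the hg19 build, and the labels give single reads of 50 nt. No annotation version is stated in the sources at hand. The C4-2B ENZR table holds CPM as deposited by the authors, scaled by TMM. The LNCaP table, deposited by the authors in the same form, sums to 1064500 in the shMAOA library, so its unit was recorded as a signal, and it is called CPM here. The tables were scaled separately, so ratios stay within a table. RSEM divides reads that match several genes among them by estimation. Steps of the deposited values gave whole reads for 100% of values within 0.01 read.

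Ratios were taken as log2((CPM + 1)/(CPM + 1)), shMAOA over shCon, and without a pseudocount, with exact conditional (Clopper-Pearson) 95% intervals. PCR reads are not independent molecules, so intervals and floors cover counting error only. With limma 3.58.1 (R 4.3.3), an intercept was fitted to each gene's pair of within-line ratios, for 13114 genes averaging 1 CPM or more in each table, with a trend prior and Benjamini-Hochberg adjustment at 0.05. edgeR and DESeq2 on the recovered reads were alternatives. Each group is 1 library, so the spread between cultures was not measured, and the difference between lines leaves no residual degrees of freedom. The genes named are all members, MAOA, and in each pathway list the most abundant gene, genes past limma and genes past 2-fold. The members, lists and tests were chosen with earlier results of these data known. The pathway lists cover other UGT2B genes, sugar donors, sulfation, reduction, dehydrogenases, synthesis, hydroxylation and uptake. The marker lists were luminal, basal, fibroblast, leukocyte and hepatocyte. Transcript words and coding identity came from GENCODE v29 transcripts (GRCh38), and upstream sequence from RefSeq GRCh38.p14, neither of which is the build of the deposited tables.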

Additional observations from a re-analysis of the deposited data

Results flagged for a closer look

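For 3 values the lines went opposite ways under the same comparison, lower in C4-2B ENZR shMAOA than in shCon and higher in LNCaP shMAOA than in shCon. The log2 ratio in LNCaP minus that in C4-2B ENZR was 1.92 for UGT2B15, 3.12 for UGT2B17 and 2.19 for the summed reads of the 7 UGT2B genes, all without a pseudocount. The difference was not tested, since 1 library per group leaves no residual degrees of freedom. Line, the enzalutamide recorded for the medium and the lane-like suffix of the library names cannot be told apart. Nor can the strength of the knockdown, with 66.8% of control MAOA left in C4-2B ENZR and 31.3% in LNCaP. Whether the MAOA hairpin was the same in both lines is not stated.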

How the results depend on the processing

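At a threshold of 1.5-fold instead of 2-fold, 2 members were lower in C4-2B ENZR and 2 higher in LNCaP, against 0 and 0, and with a pseudocount of 0.1 there was 1 member 2-fold higher in LNCaP (UGT2B15). Against 1 member that rose in limma, 0 rose with libraries rescaled to the same sum, without a filter on low values (10 tested), with edgeR and recomputed TMM, with DESeq2, and with edgeR on genes of 10 reads or more over the 4 libraries (10 tested), a setting chosen after seeing the data. Against 0 that fell, 1 fell (STS) with centred ratios and with rescaled libraries. Against 1 pathway gene that rose, 0 rose under the same 5 settings (51 tested without a filter, 37 in the edgeR fit on 10 reads or more). The cause of these changes was not tested.

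Directions turned for small ratios. In LNCaP with rescaled libraries, SRD5A3 was at -0.0576 and HSD17B4 at -0.0553, and with centred ratios UGT2B28, near the floor, was at -0.109 against 0.0254. The mean of UGT2B15 was 0.0902 with a pseudocount of 0.1 and 0.0492 with DESeq2, against -0.0725 in the main fit. The mean of HSD17B4 was -0.0253 with centred ratios, -0.0718 with rescaled libraries, -0.0234 with edgeR and recomputed TMM, -0.0199 with DESeq2 and -0.0204 with edgeR on 10 reads or more. Over all genes, 554 rose and 195 fell, and 578 and 543 with centred ratios, 351 and 653 with rescaled libraries, 583 and 207 with edgeR on the deposited scaling, 175 and 128 with edgeR and recomputed TMM, 133 and 90 with edgeR on 10 reads or more, 131 and 90 with DESeq2 (3560 genes without an adjusted p), and 14 and 6 without a filter. MAOA missed the threshold without a filter (limma, Benjamini-Hochberg adjusted p = 0.131) and with DESeq2 (0.315). Replicates could not be paired within a line, because each group is 1 library and the labels give no replicate numbers. Pairing by line already enters through the ratio within each line. Depth limits UGT2B28 in both lines and UGT2B11 in LNCaP.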
